A study of Mus musculus with 6 samples.

Results

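Barcodes that carried Xcr1 or Clec9a transcripts together with MHC class II were examined in single-cell RNA data from a mouse breast tumour model. A barcode stands for the contents of 1 droplet. It was chosen when it held at least 300 genes and at most 20% mitochondrial counts, 2 or more unique molecular identifiers (UMIs, tags that count RNA molecules) of Xcr1 and Clec9a together, and H2-Ab1 at 5 or more per 10000 of its UMIs. It also had to hold fewer than 2 UMIs of Ccr7 and none of Cd3e or Cd79a. The rule took 118 barcodes of the 42259 that met the quality limits, out of 42902 in all. These measured values chose the members, so their levels of the rule genes are a description and were not tested.

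The material came from 4T1, a BALB/c mouse mammary carcinoma cell line, and the labels give breast cancer as the tissue. In both groups the 4T1 cells had been exposed to lentivirus for 48 h and kept in puromycin at 2 µg/mL for 7 days. The control group carried a non-targeting short hairpin RNA (shNC, 3 libraries) and the other group a hairpin against Pgk1 (shPgk1, 3 libraries), the gene of the glycolytic enzyme phosphoglycerate kinase 1. The labels name the 4T1 cells as the transduced cells. They give no host animal, strain, sex or age and do not say how dendritic cells entered the samples, and nothing says that the 3 libraries of a group came from separate animals, so a p-value here measures only how these samples spread, which may be technical.

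Libraries held between 78778073 and 128933960 UMIs, 6203 to 7696 barcodes that met the limits, and a median of 8086 to 11663.5 UMIs in those barcodes. Pgk1 in the passing barcodes outside the chosen set stood at 349, 340 and 313 counts per 1000000 UMIs (CPM) in shNC libraries 1 to 3, against 324, 324 and 349 CPM in the libraries labelled shPgk1. The groups overlapped, with a log2 difference of 0.06 ± 0.07 (SE, edgeR quasi-likelihood test, adjusted p = 0.543). These barcodes mix tumour and other cells, so the transduced cells were not checked alone. The group is called the libraries labelled shPgk1 throughout.

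Type 1 conventional dendritic cells are the dendritic cells that take up dying cells and show their antigens to CD8 T cells on MHC class I, a process called cross-presentation. They arise under the growth factor receptor Flt3 and the transcription factors Irf8 and Batf3. Xcr1 is the receptor for Xcl1, a chemokine of NK and CD8 T cells, and Clec9a binds actin filaments that dead cells expose. In tumours these cells are known for carrying antigen to the lymph node and for attracting T cells.

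The label type 1 dendritic cell held for only some of the members. Outside the rule genes, 7 known genes of the type were summed per barcode: Flt3, Batf3, Cadm1, Itgae, Tlr3, Wdfy4 and Naaa. Of the 118 barcodes, 60 held 6 or more UMIs of these genes per 10000, called marker-rich here, and 58 held fewer, called marker-poor. The limit was chosen after the values were seen. It cuts a range and does not define a cell type. Of the members, 7 lay from 4 to under 6 per 10000 and 2 from 6 to 8. The highest marker-poor barcode stood at 5.79 and the lowest marker-rich at 6.61 per 10000, and the medians were 1.5 and 18.7.

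Genes of macrophages and monocytes split along the same range. The summed level of C1qa, C1qb, C1qc, Apoe, Csf1r and Lyz2 had a median of 17.7 per 10000 in marker-rich and 179 in marker-poor barcodes. It reached 40 or more in 3 of 60 marker-rich and 52 of 58 marker-poor barcodes. The set is therefore called the Xcr1/Clec9a rule set in what follows, and it is not treated as 1 cell type.

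**Figure D1:**
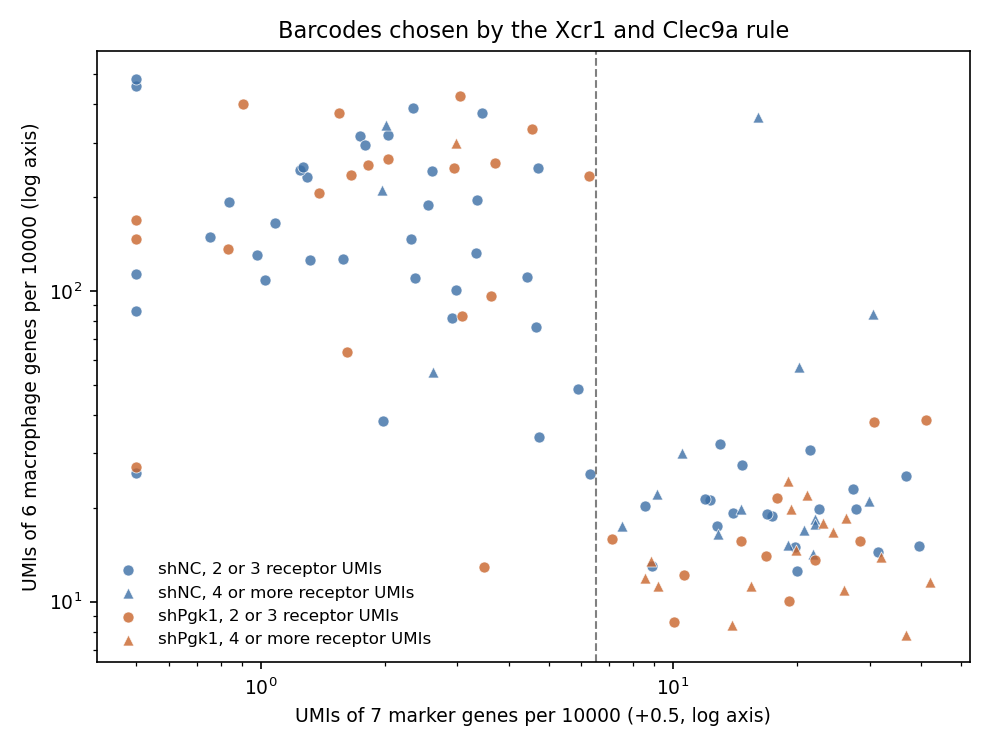
Each point is 1 of the 118 barcodes. The horizontal axis is the UMIs of 7 type 1 dendritic genes per 10000 (0.5 added, log axis), the vertical axis the UMIs of 6 macrophage genes per 10000 (log axis), and the dashed line marks the limit of 6 with the 0.5 added. Barcodes right of the line have a median macrophage level of 17.7 and those left of it 179.

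The 7 genes contributed unequally to this split, which their sum defined. Flt3 was detected in 46 marker-rich and 4 marker-poor barcodes. Itgae, the integrin chain CD103 that binds E-cadherin, was detected in 47 and 5. Wdfy4, a protein required for cross-presentation of cell-associated antigen, was detected in 58 and 16. Batf3 was found in 45 and 17, Cadm1, an adhesion molecule that binds Crtam on T cells, in 44 and 20, and Tlr3, the receptor for double-stranded RNA, in 19 and 2. Naaa, a lysosomal lipid amidase, was found in 58 and 39. Irf8 was found in nearly every barcode of either range, 59 and 54. Of the 7 markers, 4 or more were detected in 55 marker-rich and 4 marker-poor barcodes, and 8 marker-poor barcodes held none.

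The 2 receptors of the rule were shared unevenly. Both were detected in 37 marker-rich and 4 marker-poor barcodes, Clec9a alone in 18 and 52, and Xcr1 alone in 5 and 2. A total of exactly 2 receptor UMIs, the least the rule accepts, was held by 25 marker-rich and 44 marker-poor barcodes, while 4 or more were held by 30 and 4. The highest total was 25, made of up to 13 Xcr1 and 12 Clec9a UMIs. The marker-poor barcodes were deeper, with a median of 23955.5 UMIs against 15865, and held a median of 0.666% against 0.298% mitochondrial UMIs.

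The values on either side of the rule's thresholds are given as a description. Among barcodes that met the other conditions, the marker-rich share was 37 of 340 (10.9%) at 1 receptor UMI, 25 of 69 (36.2%) at 2, 5 of 15 (33.3%) at 3, 10 of 12 (83.3%) at 4 and 20 of 22 (90.9%) at 5 or more. Just outside the rule, at 1 receptor UMI, Flt3 stood at 6.53 CPM and just inside, at 2, at 42.9 CPM. Irf8 stood at 194 and 475 CPM and C1qa at 2235 and 2391 CPM on the same sides. The H2-Ab1 limit excluded little, since 35950 of the passing barcodes (85.1%) met it. Of the 46 barcodes left out for 2 or more Ccr7 UMIs, 18 were marker-rich, and they held Fscn1 and Ccl22, genes of migrating mature dendritic cells, at 96.1 and 84.8 CPM against 22.3 and 16.3 CPM in members without a Ccr7 UMI. A further 24 were left out for Cd3e or Cd79a, 10 of them marker-rich.

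Droplet data also hold free RNA, so the receptor count was read in other barcodes. Of 2373 barcodes with at least 10 UMIs of Epcam, Krt8 and Krt18 and fewer than 3 C1q UMIs, 0 had 2 or more receptor UMIs, which allows a share of up to 0.126% and covers counting error only. Their median depth was 5644 UMIs. Of 18547 passing barcodes with 10 or more C1q UMIs, members included, 143 (0.771%) had 2 or more, at a median of 20631 UMIs. Clec9a outside the rule set stood between 0.831 and 2.44 CPM in the shNC libraries and between 0.190 and 1.05 CPM in the libraries labelled shPgk1.

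Levels below are summed UMIs per 1000000 in all barcodes of a set pooled over libraries. The 3 comparison sets were taken by rule from the remaining passing barcodes with the same H2-Ab1 and lymphocyte limits: 94 barcodes with 2 or more UMIs of Cd209a, a gene of type 2 dendritic cells, 1409 with 2 or more of Ccr7, and 13372 with 10 or more of the C1q genes. None was pure. The Cd209a set held C1qa at 1775 CPM, the Ccr7 set at 2235 CPM, and the C1q set held the tumour epithelial list at 4378 CPM. Since Xcr1 and Clec9a chose the members, and the 7 markers chose the ranges, none of these differences was tested. Counts of list genes higher in one range or the other were not made over all genes, so those counts are descriptions.

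Xcr1 stood at 117 CPM in marker-rich and 6.57 CPM in marker-poor barcodes, and at 0, 1.92 and 0.211 CPM in the Cd209a, Ccr7 and C1q sets. Clec9a was closer between the ranges, at 142 and 93.4 CPM. Per library, Xcr1 in the whole rule set stood at 11.2, 90.0 and 54.5 CPM in shNC against 48.8, 137 and 102 CPM in the libraries labelled shPgk1. Clec9a stood at 97.5, 112 and 117 CPM against 145, 116 and 116 CPM. Xcr1 thus varied over a wider range than Clec9a, and its lowest library, shNC 1, was the one with the most marker-poor UMIs.

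Of the transcription factors of the type, Irf8, Batf3, Zbtb46 and Id2 were highest in the marker-rich barcodes. Irf8 stood at 986 CPM there, 368 in marker-poor barcodes and 115, 232 and 128 in the Cd209a, Ccr7 and C1q sets. Batf3 stood at 171 CPM against 16.8 in marker-poor barcodes. Zbtb46, a factor of conventional dendritic cells, stood at 19.0 and 0.730 CPM. Id2, required for type 1 development, was high in both ranges at 882 and 630 CPM, and Nfil3, which acts upstream of it, was lower in marker-rich barcodes at 52.4 against 156 CPM.

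Among receptors and surface molecules, Flt3 stood at 118 CPM in marker-rich and 7.30 in marker-poor barcodes, with 31.5 in the Cd209a set. Itgae stood at 192 and 6.57 CPM and Tlr3 at 49.7 and 2.19 CPM. Tlr11, the mouse receptor for profilin of protozoa, stood at 47.0 CPM in marker-rich barcodes and 0.730 in marker-poor ones. Btla, an inhibitory receptor, stood at 64.2 and 4.38 CPM, Kit at 51.5 and 8.03 CPM, and Ly75, the endocytic receptor DEC-205, at 32.5 and 5.84 CPM. Sirpa, a receptor of type 2 dendritic cells and macrophages, ran the other way at 23.5 and 149 CPM, as did Itgax, the CD11c chain, at 54.2 and 146 CPM, and Mertk, a receptor for apoptotic cells, at 3.62 and 47.4 CPM.

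Further genes separated the ranges without being part of the marker sum. Cst3, the protease inhibitor cystatin C, stood at 28215 CPM in marker-rich and 4379 in marker-poor barcodes, with 5181, 6212 and 2235 CPM in the 3 comparison sets. Gcsam stood at 82.3 CPM, in 31 of 60 marker-rich barcodes, and was at 0 in all 58 marker-poor ones. Ppt1, a lysosomal thioesterase, stood at 523 and 152 CPM, Plet1 at 469 and 20.4 CPM, and Asb2, a ubiquitin ligase subunit, at 64.2 and 2.19 CPM. Rab43, a small GTPase tied to cross-presentation, differed less, at 297 and 120 CPM.

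**Figure D2:**
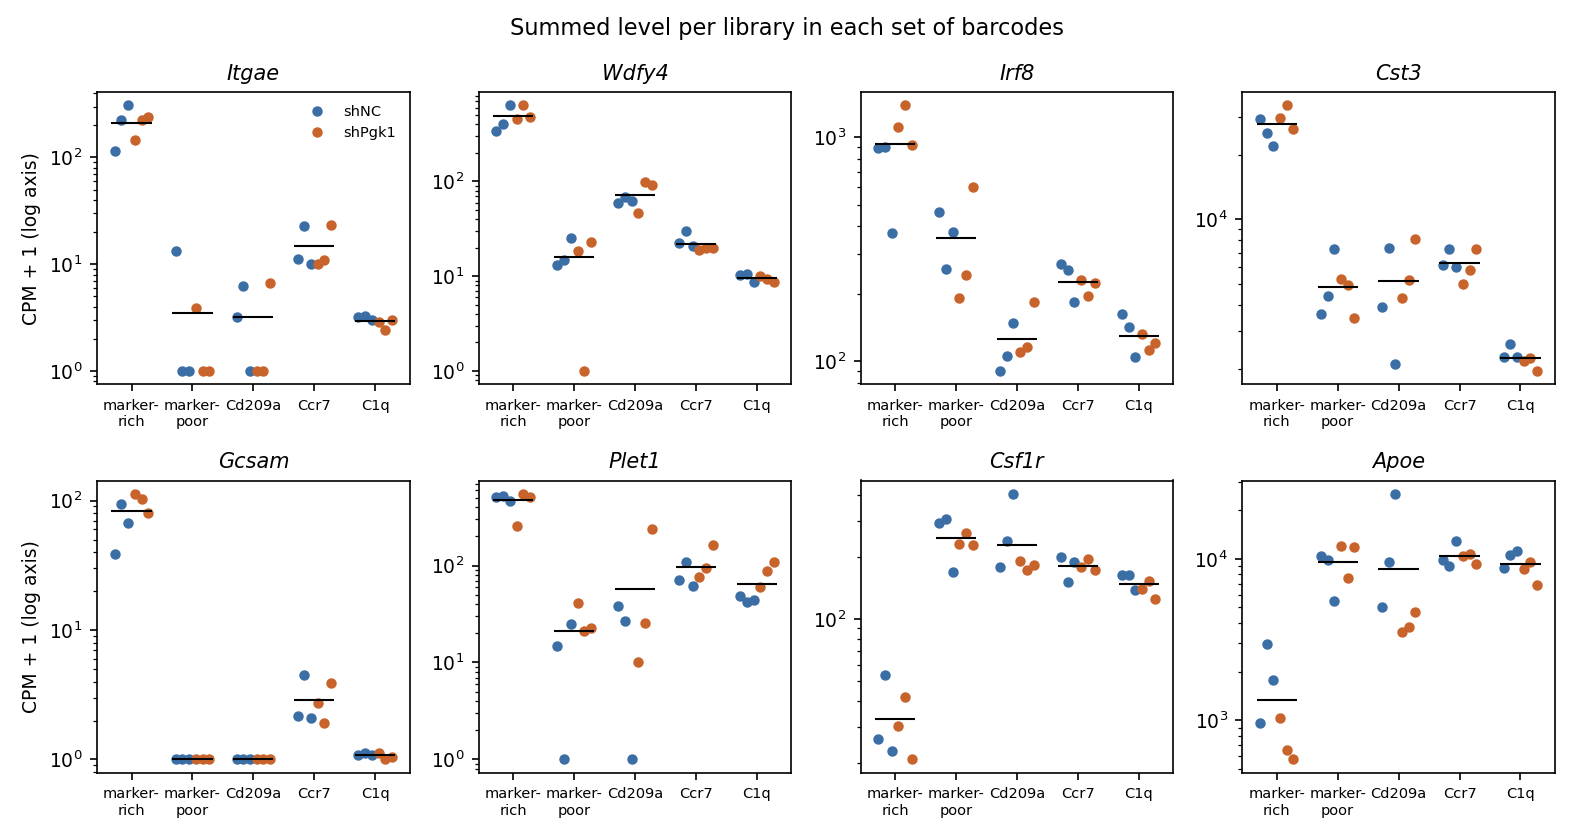
Each panel is 1 gene, each point the summed level of 1 library in CPM (1 added, log axis), in the marker-rich and marker-poor ranges and the Cd209a, Ccr7 and C1q sets. Type 1 genes are highest in the marker-rich column, where Wdfy4 pools to 453 CPM against 14.6 in the marker-poor column. The macrophage gene Apoe pools to 1377 CPM in the marker-rich against 10476 in the marker-poor column.

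The 20 genes with the highest ratio of mean level in the rule set to the highest of the 3 comparison sets included Xcr1 (37.1-fold) and Clec9a (25.2-fold), which the rule fixed. Among genes detected in at least 36 barcodes with under 20% of their UMIs in any 1 of them, Itgae was next at 8.21-fold, then E330020D12Rik at 5.16, Tnni2, a troponin subunit, at 4.40, Ppt1 at 4.11, Wdfy4 at 3.79, Cadm1 at 3.54, Naaa at 3.45, Irf8 at 3.02, Txndc15 at 2.91, Plet1 at 2.73, Cst3 at 2.70 and Rab7b at 2.66. Klk1 (4.19-fold) was found in 3 barcodes. For 5 others most UMIs came from 1 barcode: all of those of Mucl1 did, as did 96.4% of those of Eln, 91.8% of Mmp3, 77.9% of Hamp and 58.9% of Hgsnat. These 5 ratios describe mainly single droplets.

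Antigen presentation was high in both ranges. The MHC class II list summed to 31998 CPM in marker-rich and 38390 in marker-poor barcodes, with 29642 in the Cd209a and 16302 in the C1q set. Of its 13 genes, 5 were higher in the marker-rich and 8 in the marker-poor range. Ciita, the class II transactivator, stood at 98.6 and 57.6 CPM and H2-Oa, a modulator of peptide loading, at 47.9 and 12.4 CPM, whereas Ctss, the protease that trims the invariant chain, stood at 559 and 3387 CPM and Lgmn, an asparagine protease, at 103 and 466 CPM. In the class I list, 12 of 29 genes were higher in the marker-rich range. They included the immunoproteasome parts Psmb9 at 655 against 399 CPM, Psmb8 at 924 against 680 CPM and Psme1 at 1137 against 719 CPM, and the peptide transporter chains Tap1 at 158 against 106 CPM and Tap2 at 171 against 104 CPM. The class I molecules were higher in the marker-poor range, with H2-D1 at 2096 against 3621 CPM and B2m at 2725 against 5473 CPM.

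Chemokines and cytokines that act on T and NK cells lay mostly on the marker-poor side, in 12 of 13 genes that reached 20 CPM in either range. Cxcl9, a ligand of the T cell receptor Cxcr3, stood at 169 CPM in marker-rich and 535 in marker-poor barcodes, and Ccl5 at 91.3 and 1854 CPM. Il1b stood at 816 and 3780 CPM. Il12b, a subunit of the T cell activating cytokine IL-12, was below that level in both ranges, at 13.6 CPM, from 5 marker-rich barcodes, and 0.730 CPM. Of 17 co-stimulation and checkpoint genes, 12 were higher in marker-poor barcodes, among them Cd274, the ligand PD-L1, at 137 against 287 CPM. Cd83 at 222 against 109 CPM and Havcr2, the receptor TIM-3, at 96.7 against 54.7 CPM ran the other way.

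Glycolysis genes were higher in the marker-poor range in 17 of 18 cases and hypoxia genes in 11 of 11, with no count over all genes to set beside them. Hk2, a hexokinase, stood at 109 CPM in marker-rich and 443 in marker-poor barcodes, and Vegfa at 9.95 and 166 CPM. Mitosis genes were higher in the marker-rich range in 15 of 15, with Ube2c at 174 and 22.6 CPM and Birc5 at 95.8 and 24.1 CPM. The mitosis list summed to 913 CPM in marker-rich, 262 in marker-poor and 669 in C1q barcodes. The highest mitosis levels came from few members. Of the 118 barcodes, 12 held 10 or more mitosis UMIs per 10000, of which 10 were marker-rich. By library they numbered 2, 2 and 1 in shNC and 5, 1 and 1 in the libraries labelled shPgk1.

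The first comparison between groups was the share of the rule set among passing barcodes. It was 37 of 7696 or 0.481% in shNC 1, 25 or 0.403% in shNC 2 and 9 or 0.132% in shNC 3. In the libraries labelled shPgk1 it was 25 or 0.373%, 9 or 0.121% and 13 or 0.176%. Exact 95% binomial intervals ran from 0.339 to 0.662% in the highest and from 0.0555 to 0.230% in the lowest library. They cover counting error only. The groups overlapped, with means of 0.338 ± 0.183% and 0.223 ± 0.132% (SD, n = 3 each, difference -0.115 points, two-sided exact permutation test, p = 0.4, adjusted over 2 shares 0.7). With 3 against 3 this test cannot go below 0.1.

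Among the 1621 barcodes of the rule set, the Cd209a set and the Ccr7 set, the rule set was 7.84, 10.2 and 5.36% of the shNC barcodes, against 10.6, 3.52 and 5.28% in the libraries labelled shPgk1. The difference of -1.33 points was smaller than the spread within either group (exact permutation test, p = 0.7, adjusted 0.7). It turned to 0.307 points with 4 or more receptor UMIs and to 0.147 points without the library shPgk1 2. The marker-rich barcodes numbered 12, 18 and 3 in shNC and 12, 7 and 8 in the libraries labelled shPgk1, the marker-poor ones 25, 7 and 6 against 13, 2 and 5. After each barcode was thinned to 3000 UMIs and the rule applied again, 7, 5 and 1 against 5, 2 and 2 members remained, with 7034 passing barcodes and 2 members too shallow to enter.

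**Figure D3:**
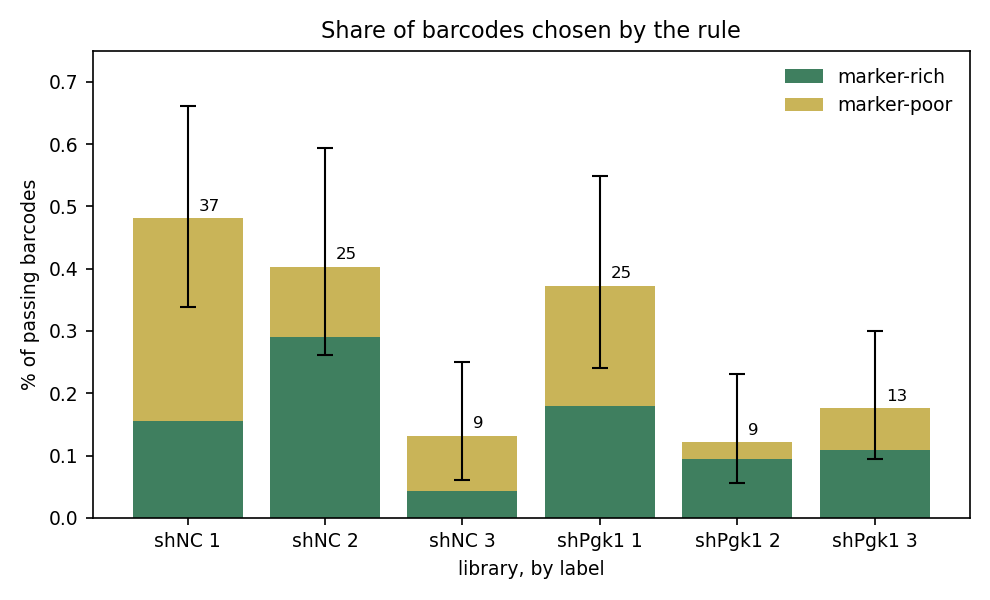
The share of passing barcodes chosen by the rule, in percent, for each library by label, with exact 95% binomial intervals. The libraries span 0.132 to 0.481% in shNC and 0.121 to 0.373% in shPgk1, and the groups overlap.

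For expression, UMIs of all members were summed per library, which gave 128482 to 892141 UMIs, and libraries labelled shPgk1 were compared with shNC. In such sums a shift in the mix of barcodes and a change within them cannot be told apart. Marker-poor barcodes gave 73.3, 35.1 and 64.5% of the summed UMIs in shNC and 62.8, 25.2 and 31.3% in the libraries labelled shPgk1. The 6 macrophage genes summed to 14491, 11687 and 6857 CPM against 16188, 4986 and 6791 CPM. The 2 ranges were also run apart.

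Of 3825 genes tested, 2 passed an adjusted p of 0.05, both lower in the libraries labelled shPgk1, which is 0.0523% of the genes tested. An unadjusted p under 0.05 was reached by 245 genes, and in 477 genes (12.5%) the groups did not overlap. The 2 genes were Ccl9 and Ccl6, neighbouring mouse CC chemokine genes whose products attract myeloid cells and bind the receptor Ccr1.

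Ccl9 stood at 128, 217 and 117 CPM in shNC against 10.8, 30.4 and 17.0 CPM in the libraries labelled shPgk1 (154 ± 54.7 against 19.4 ± 9.98, mean ± SD, n = 3 each). Every shNC library lay above every library labelled shPgk1. The log2 difference was -3.21 ± 0.43 (SE, edgeR quasi-likelihood test, adjusted p = 0.0228). These levels rest on 114, 89 and 15 UMIs against 6, 6 and 5, and in shNC 2 a single barcode gave 53 of the 89. The call did not hold without shPgk1 1 (adjusted p = 0.0841) or shPgk1 3 (adjusted p = 0.0859).

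Ccl6 stood at 592, 691 and 646 CPM in shNC against 251, 142 and 221 CPM in the libraries labelled shPgk1 (643 ± 49.6 against 205 ± 56.6, mean ± SD, n = 3 each). The groups again did not overlap, and the log2 difference was -1.67 ± 0.24 (SE, edgeR quasi-likelihood test, adjusted p = 0.0228). The levels rest on 528, 284 and 83 UMIs against 139, 28 and 65, of which the largest single barcodes gave 103, 186 and 71 in shNC and 65, 21 and 51 in the libraries labelled shPgk1. In shPgk1 2, the lowest library, 21 of the 28 UMIs came from 1 barcode. The adjusted p ran from 0.0636 to 0.0947 without shNC 2, shNC 3, shPgk1 2 or shPgk1 3 in turn, and stood at 0.435 with 4 or more receptor UMIs and at 0.299 after thinning.

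Both chemokines came mainly from the marker-poor barcodes. Ccl9 stood there at 170, 520 and 181 CPM in shNC and 17.3, 121 and 54.3 CPM in the libraries labelled shPgk1. In marker-rich barcodes it stood at 12.6, 52.5 and 0 CPM against 0 in each of the 3 libraries labelled shPgk1. Within the marker-poor barcodes the log2 difference was -2.74 ± 0.76 for Ccl9 and -1.27 ± 0.34 for Ccl6 (SE, edgeR quasi-likelihood test, adjusted p = 0.505 for both, 1397 genes tested). Ccl6 in marker-poor barcodes stood at 745, 1629 and 977 CPM against 371, 502 and 608 CPM, with no overlap. In marker-rich barcodes it stood at 172, 184 and 43.9 CPM against 48.6, 20.3 and 44.6 CPM, where shNC 3 lay below 2 libraries of the other group.

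The same direction was present outside the rule set. In all other passing barcodes Ccl9 stood at 91.7, 97.4 and 74.0 CPM against 37.3, 40.4 and 45.3 CPM (log2 -1.02 ± 0.12, SE, edgeR, adjusted p = 0.0153) and Ccl6 at 415, 443 and 300 CPM against 215, 171 and 186 CPM (-0.94 ± 0.15, adjusted p = 0.0171). There 3449 of 19599 genes passed (17.6%), 1487 of them lower (7.59%). In the C1q set the log2 differences were -0.79 ± 0.18 for Ccl9 (adjusted p = 0.0248) and -0.70 ± 0.18 for Ccl6 (adjusted p = 0.0341). In the Cd209a set Ccl9 stood at 463, 604 and 380 CPM against 435, 539 and 533 CPM, with overlapping groups and a log2 difference of -0.07 ± 0.25 (edgeR, adjusted p = 0.970). Ccl6 had a log2 difference of -0.68 ± 0.20 in that set (edgeR, adjusted p = 0.424). The set was small, with 32, 21 and 7 barcodes in shNC against 7, 13 and 14 in the libraries labelled shPgk1. In the Ccr7 set the log2 differences were -0.81 ± 0.23 for Ccl9 and -0.57 ± 0.17 for Ccl6 (edgeR, adjusted p = 0.174 and 0.183).

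**Figure D4:**
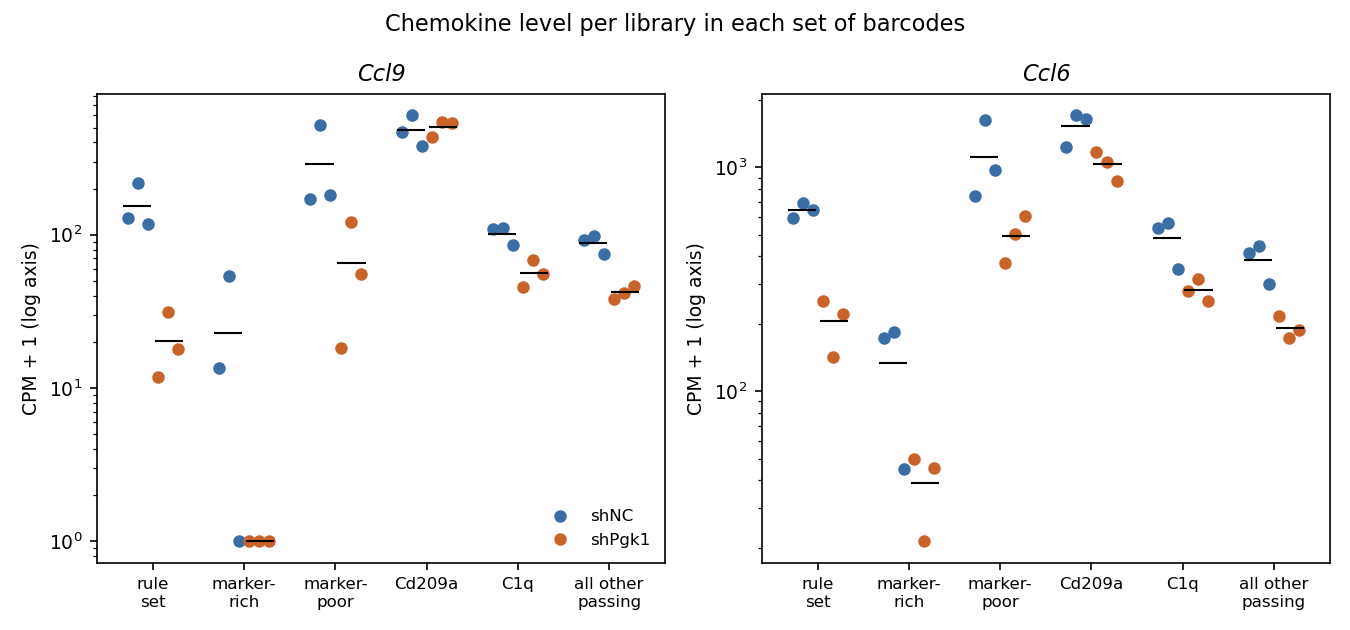
Ccl9 and Ccl6 per library in CPM (1 added, log axis), in the rule set, its 2 ranges, the Cd209a and C1q sets and all other passing barcodes. The shNC and shPgk1 libraries are in separate colours. In the rule set all shNC points lie above all shPgk1 points, for Ccl9 at 117 to 217 against 10.8 to 30.4 CPM, whereas in the Cd209a set the Ccl9 points overlap.

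The difference from the Cd209a and C1q sets was tested with a class by group term in a fit that keeps each library as a block. The Ccr7 set was not tested this way. Against the Cd209a set, 1 of 3027 genes passed (0.033%), which was Ccl9, whose group difference in the rule set minus that in the Cd209a set was -3.03 ± 0.43 on the log2 scale (SE, edgeR, adjusted p = 0.00891). Ccl6 did not pass (-1.01 ± 0.28, adjusted p = 0.838). No gene passed this comparison without shPgk1 1 or without shPgk1 3 (0 calls each, with 147 and 137 genes at an unadjusted p under 0.05). Against the C1q set, 42 of 15043 genes passed (0.279%), 30 of them with a higher and 12 with a lower group difference in the rule set. That number ran from 12 without shPgk1 3 to 155 without shPgk1 1. Ccl9 was among the lower ones (-2.33 ± 0.44, adjusted p = 0.00029), and Ccl6 did not pass (-0.98 ± 0.28, adjusted p = 0.12). Of the 30 higher genes, 19 had 50% or more of their member UMIs in 1 barcode, against 1 of the 12 lower. That gene was Cxcl3, a neutrophil chemokine (-4.50 ± 0.60, 77.5% of its UMIs in 1 barcode).

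Ccl9 and Ccl6 lie side by side on mouse chromosome 11, on the minus strand (GRCm38, GENCODE M21). Ccl9 spans chr11:83572919-83578636 and Ccl6 chr11:83587882-83593087, with 9245 bases between them. Because both were lower together, the 250 bases before each start are shown, from RefSeq (GRCm38.p6, minus strand, written 5′ to 3′). Ccl9 is read from chr11:83578637-83578886 and Ccl6 from chr11:83593088-83593337. Capitals mark matches to the motifs searched.
Ccl9: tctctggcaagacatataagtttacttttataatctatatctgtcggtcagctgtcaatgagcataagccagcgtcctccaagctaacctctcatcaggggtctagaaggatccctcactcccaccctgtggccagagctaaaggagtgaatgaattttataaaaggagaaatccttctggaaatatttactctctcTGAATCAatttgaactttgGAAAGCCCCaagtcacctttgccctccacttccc
Ccl6: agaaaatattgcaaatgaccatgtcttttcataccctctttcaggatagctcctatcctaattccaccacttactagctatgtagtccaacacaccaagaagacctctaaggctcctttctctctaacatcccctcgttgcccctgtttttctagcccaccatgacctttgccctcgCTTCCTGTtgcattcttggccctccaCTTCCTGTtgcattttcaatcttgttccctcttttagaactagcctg
Both strands of each window were searched for TGANTCA (AP-1), GAAANNGAA (interferon-stimulated response element), GGGNNTTTC (NF-kB), GAGGAAGT (PU.1) and CTTCCTGT (an ETS-type site). The Ccl9 window held TGAATCA at bases 198 to 204 and, on the other strand, an NF-kB match read here as GAAAGCCCC at bases 217 to 225. The Ccl6 window held CTTCCTGT at bases 178 to 185 and 204 to 211. The windows shared a run of 13 bases, GCCCTCCACTTCC, from base 237 in Ccl9 and base 196 in Ccl6. Of 32851 promoter windows of this length, 6.75% held the AP-1 letters, 3.72% the NF-kB letters and 2.90% the ETS-type letters, and 7.13% and 2.44% held the interferon and PU.1 letters. A match is a description of letters, and binding was not measured.

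The next genes by p, among those of at least 20 CPM, did not pass. Stxbp3, a partner of syntaxins in vesicle fusion, stood at 68.4, 90.0 and 132 CPM against 19.9, 15.2 and 27.2 CPM (log2 -2.14 ± 0.42, SE, edgeR, adjusted p = 0.284). Clec4d, a myeloid C-type lectin, stood at 138, 102 and 85.6 CPM against 47.0, 40.5 and 17.0 CPM (-1.68 ± 0.38, edgeR, adjusted p = 0.401). AY036118, a ribosomal-RNA-like gene, had a log2 difference of -0.63 (adjusted p = 0.401). On the positive side, Taf10, a subunit of the general transcription factor TFIID, stood at 103, 94.9 and 125 CPM against 219, 213 and 245 CPM (1.05 ± 0.24, edgeR, adjusted p = 0.401). Grasp at 1.38 (adjusted p = 0.401), Skap2 at 1.07, Ccnd1, the cell cycle cyclin D1, at 0.94 and Snx20 at 1.30 (adjusted p = 0.625 for the last 3) did not pass either. Pgk1 in the rule set stood at 389, 280 and 241 CPM against 305, 314 and 201 CPM, with overlapping groups (log2 -0.22 ± 0.25, -0.72 to 0.28 at 2 SE, adjusted p = 0.922).

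Libraries with the same number in the 2 groups had weakly correlated deviations from their group means (0.168 to 0.269). The labels do not say that the numbers pair the samples. A fit that assumed so, with the replicate number as a block, called 22 of 3825 genes. Of these, 3 were higher and 19 lower in the libraries labelled shPgk1. Ccl9 (log2 -3.12 ± 0.38, SE, edgeR, adjusted p = 0.00015) and Ccl6 (-1.69 ± 0.24, adjusted p = 0.000486) were among the lower ones. So were Isg15, a ubiquitin-like interferon product (-1.72, adjusted p = 0.000188), and Ptgs2, the prostaglandin enzyme cyclooxygenase 2 (-1.96, adjusted p = 0.000188). Others were the lysosomal genes Ctss (-0.75) and Lyz2 (-0.84), Oasl1, Cd14, Cxcl2, Acod1, Stxbp3 and Clec4d. The higher genes were Cst3 (0.50, adjusted p = 0.00015), Asb2 (2.62, adjusted p = 0.0203) and Jund, an AP-1 subunit (1.10, adjusted p = 0.0402).

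The genes called with the block were set beside the 2 ranges. All 19 lower genes had a higher pooled level in marker-poor than in marker-rich barcodes, and all 3 higher genes the reverse. Some were near ties, with Stxbp3 at 56.2 against 54.2 CPM and Ly6a at 554 against 542 CPM. The pooled levels are not independent of the group difference. The marker-poor pool held 881189 shNC UMIs against 489336 from the libraries labelled shPgk1, the marker-rich pool 550500 against 555527. The same count over all genes tested was not made, so these counts are a description. The part of the marker-poor share in these calls was not tested. Isg15, for example, stood at 861, 1146 and 2140 CPM in shNC and 324, 223 and 833 CPM in the libraries labelled shPgk1, and at 568 CPM in pooled marker-rich against 988 in marker-poor barcodes. The highest shPgk1 library, shPgk1 3, lay just below the lowest shNC library.

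Gene lists were described by their signs and medians beside those of all 3825 genes, of which 1968 had a positive and 1857 a negative log2 difference (median 0.01). No member of the lists below passed the test without the replicate block, which is the fit whose values follow. With the block 8 of them passed, Cst3 (adjusted p = 0.00015), Ctss (0.00335), Lyz2 (0.00616), Isg15 (0.000188), Oasl1 (0.00784), Iigp1 (0.0337), Ptgs2 (0.000188) and Cxcl2 (0.0328), of which Cst3 was higher and the other 7 lower in the libraries labelled shPgk1. Of 25 type 1 identity genes tested, 22 were positive and 3 negative (median 0.45). The 4 of highest level were Cst3 (log2 0.50 ± 0.31), Id2 (0.14), Irf8 (0.51) and Naaa (0.45), with adjusted p from 0.811 to 0.932. Within the marker-rich barcodes the same list had 17 positive and 7 negative members (median 0.23), and within the marker-poor ones 3 positive and 4 negative (median -0.19). Naaa and the other 6 genes that define the ranges belong to this list. Outside the rule set the list was negative in 23 of 30 in the C1q set and 24 of 32 in all other passing barcodes. Of all genes tested in those 2 sets, 8807 of 17291 and 10703 of 19599 were negative.

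Interferon-stimulated genes were negative in 24 of 26 (median -0.44), with Ifitm3 at -0.05, Isg15 at -1.62 ± 0.64, Ifi27l2a at -0.40 and Oasl1 at -1.20 ± 0.29 (adjusted p from 0.401 to 0.991). Within the marker-rich barcodes 12 of 13 were negative (median -0.30), and within the marker-poor ones 7 of 14 (median 0.03). Targets and subunits of NF-kB, a factor of inflammatory activation, were negative in 23 of 29 (median -0.45), with Il1b at -0.80, Cxcl2 at -0.55, Nfkbia at -0.55 and Ccl5 at -1.87 ± 1.02 (adjusted p from 0.740 to 0.897). Within marker-rich barcodes 18 of 20 were negative (median -0.56), and within marker-poor ones 11 of 18 (median -0.15). In the C1q set and in all other passing barcodes, NF-kB genes were also mostly negative, in 27 of 35 and 29 of 35. Interferon-stimulated genes were negative there in 18 of 38 and 20 of 38. Neutrophil markers also differed in level in the marker-rich barcodes, where they summed to 273, 289 and 241 CPM in shNC against 24.3, 94.7 and 54.5 CPM, with no overlap. In the marker-poor barcodes they overlapped, at 413, 444 and 205 CPM against 31.7, 121 and 1097 CPM. Outside the rule set the neutrophil genes were also negative, in 10 of 10 in the C1q set and 10 of 10 in all other passing barcodes. Their part in the list differences was not tested.

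Glycolysis genes, the pathway of Pgk1 itself, were negative in 16 of 16 (median -0.37). Gapdh stood at -0.13, Aldoa at -0.45, Pkm at -0.18 and Ldha at -0.30 (adjusted p from 0.796 to 0.959). By range, 8 of 10 were negative in marker-rich (median -0.26) and 8 of 12 in marker-poor barcodes (median -0.14). Hypoxia genes were negative in 9 of 11 (median -0.44). MHC class II genes were negative in 9 of 12 (median -0.17), with Cd74 at -0.13, H2-Aa at -0.16, H2-Eb1 at -0.07 and Ctss at -0.72, and class I genes in 17 of 28 (median -0.11), with B2m at -0.24, H2-D1 at -0.35, H2-K1 at -0.16 and Psme1 at 0.06. Factors that attract or activate T and NK cells were negative in 9 of 10 (median -0.42) and co-stimulation genes in 8 of 13 (median -0.28). In the C1q set and in all other passing barcodes, glycolysis genes were negative in 14 and 15 of 25 and hypoxia genes in 15 and 14 of 17. Class II genes were negative there in 10 and 12 of 13 and class I genes in 15 and 14 of 31. The T and NK cell factors were negative in 14 and 15 of 20 and co-stimulation genes in 20 and 21 of 23.

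Lists for other cells were counted the same way. Monocyte or macrophage genes were negative in 10 of 14 (median -0.19), with Apoe at -0.31, C1qa at -0.17, Lyz2 at -0.73 and C1qc at 0.06. Of the neutrophil list 2 genes were tested, S100a9 at -0.88 and S100a8 at -1.11 (adjusted p = 0.921 and 0.920), alarmins of granulocytes. Tumour epithelial genes were positive in 9 of 9 (median 0.59) and fibroblast genes in 4 of 4 (median 1.34). The fibroblast list summed to 482 to 895 CPM in shNC and 231 to 5703 CPM in the libraries labelled shPgk1, the highest from 1 barcode of shPgk1 3. The T or NK cell list stood at 63 to 80 CPM in shNC and 20 to 92 CPM in the libraries labelled shPgk1, and no T or NK gene entered the test. Mitosis genes were positive in 5 of 6 (median 0.73) and DNA replication genes in 4 of 5 (median 0.46), and 5 of the 12 members with 10 or more mitosis UMIs per 10000 came from shPgk1 1. Outside the rule set, mitosis genes were positive in 27 of 28 in the C1q set and 26 of 28 in all other passing barcodes. DNA replication genes were positive in 28 of 29 and tumour epithelial genes in 14 of 14 in each of these sets. Fibroblast genes went the other way there, negative in 10 of 10 in each. Neutrophil genes kept their direction, negative in 10 of 10 in each. Monocyte or macrophage genes were negative in 11 of 16 in the C1q set and 14 of 16 in all other passing barcodes. The part of these other lists in the group differences was not tested.

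**Figure D5:**
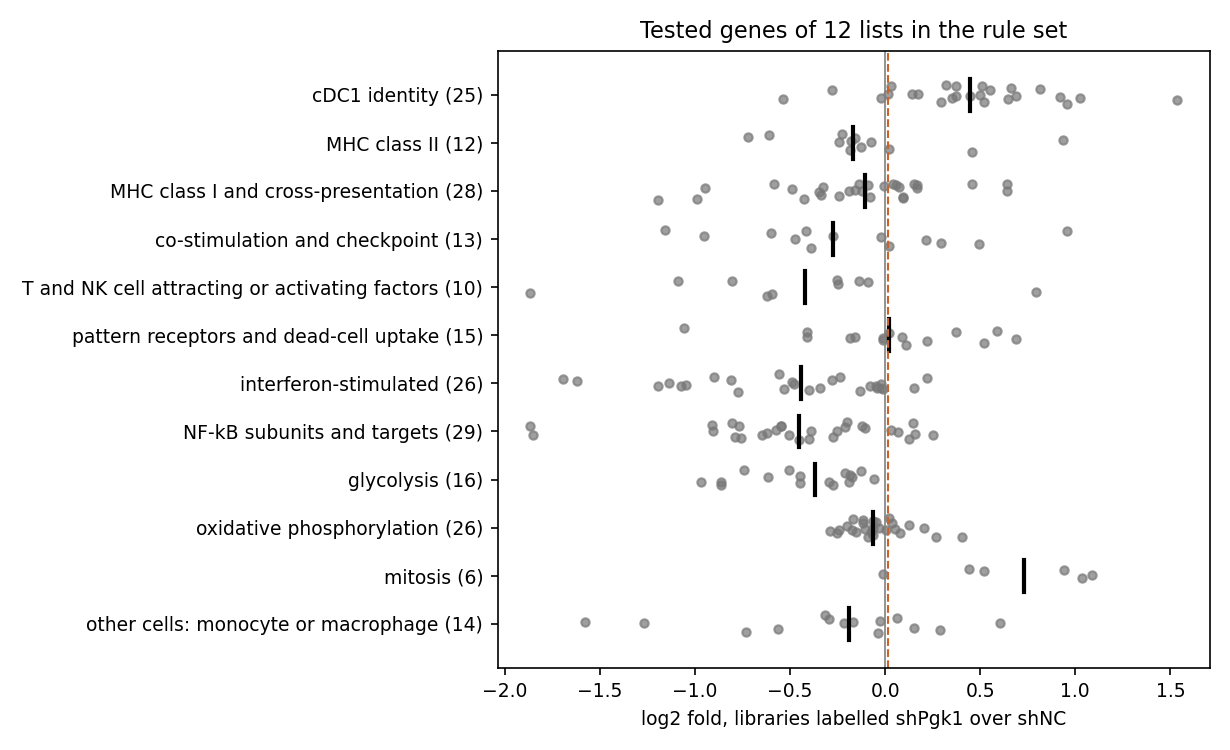
Each row is a gene list with the number of its genes tested, each point the log2 difference of 1 gene (libraries labelled shPgk1 over shNC, rule set), each black bar the median of its list, and the dashed line the median of all 3825 genes, 0.01. The type 1 identity list lies mostly right of 0 (median 0.45) and the interferon, NF-kB and glycolysis lists mostly left of it (medians -0.44, -0.45 and -0.37).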

How the data were processed

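Counts are raw UMIs per gene and barcode, deposited by the authors in a separate matrix for each library. PISA 0.12 and Seurat 4 are named in the submitters' processing notes, which give GRCh38 as the build, although the gene names are mouse names (27957 of 28649, 97.6%, were found in GENCODE M21). No aligner is given in these sources. Barcode names are serial numbers, so the 11389 names found in more than 1 library show no shared cells, and 0 count profiles were identical. Chi-square per degree of freedom between libraries ran from 24.3 to 278.

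The members, gene lists and rules were chosen with earlier results of these data known. The genes named are the rule genes, Pgk1, those past the threshold or, where fewer than 5 passed in a direction, the 5 of smallest p at 20 CPM or more, up to 4 list members of highest level, and the 20 highest ratios at 50 CPM or more. Genes set beside the 2 ranges were named by role after their values were seen.

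UMIs were summed per library over members, since cells are not replicates, and tested with edgeR 4.0.16 in R 4.3.3 (TMM, filterByExpr, robust quasi-likelihood fit, Benjamini-Hochberg adjustment over all genes tested, threshold 0.05). Shares were compared by exact permutation. Replicate numbers 1 to 3 come from the labels. Deviations from the group means at 100 CPM or more correlated at 0.269, 0.242 and 0.168 for same-numbered pairs and from -0.155 to -0.0807 otherwise. Deviations within a group cancel, so positive values for some pairs force negative ones for others, which add no separate support. For the alternative fit with a block the numbers were taken to pair the samples, which the labels do not state. Doublets were kept, and Scrublet (scanpy 1.11.5, Python 3.11.15, expected rate 0.06) put 825 passing barcodes and 1 member above a score of 0.25. The gene tests were tested on simulated data. Alternatives were DESeq2 1.42.0, its size factors, no filter, a replicate block, thinning to 3000 UMIs, stricter rules, and each library left out. The fits on the marker-rich and marker-poor ranges were added after the data were seen.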

Additional observations from a re-analysis of the deposited data

Results flagged for a closer look

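The group difference of Ccl9 in the rule set differed from that in the Cd209a and C1q sets in 2 tests. No such test was run against the Ccr7 set, where the Ccl9 log2 difference was -0.81 ± 0.23 (SE, edgeR, adjusted p = 0.174). Against the Cd209a barcodes 1 gene passed, Ccl9, whose log2 difference between libraries labelled shPgk1 and shNC was lower by -3.03 in the rule set. No gene passed without shPgk1 1 or without shPgk1 3 (0 calls each). Ccl9 was at 380 to 604 CPM in every Cd209a library, so the sets also differ in level. Against the C1q barcodes 42 genes passed (12 to 155 when 1 library was left out), among them Ccl9 at -2.33 and Stxbp3 at -1.83 ± 0.47 (edgeR, adjusted p = 0.0426). Stxbp3 had a log2 difference of -0.31 ± 0.08 in the C1q set and -2.14 ± 0.42 in the rule set, where its levels in marker-rich and marker-poor barcodes were 54.2 and 56.2 CPM. Lower terms in the same comparison included Ccl8 (-1.80), Ier3 (-1.36), Ly6a (-1.36) and Isg15 (-1.43), named after their values were seen. Several of the higher terms were fibroblast genes such as Col5a2 and Grem1, which rest on few barcodes.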

How the results depend on the processing

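The difference in the share of the rule set among passing barcodes, -0.115 points as reported, shrank to -0.00526 with 4 or more receptor UMIs and to -0.000226 without barcodes of 3 or more C1q or epithelial UMIs, where 2 members against 2 were left. Leaving out 1 library moved it between -0.219 and -0.0440 points. The exact test cannot pass with 3 against 3. The share among dendritic sets turned to 0.307 points with 4 or more receptor UMIs, to 1.19 points without barcodes of 3 or more C1q or epithelial UMIs, and to 0.147 points without shPgk1 2 (range leaving out 1 library -3.41 to 0.147). The number of genes called, 2 of 3825 as reported, was 0 with 4 or more receptor UMIs, after thinning and in marker-poor barcodes alone. There 1897, 684 and 1397 genes were tested, with 149, 52 and 73 at an unadjusted p under 0.05. The number called was 22 of 3825 with the replicate block, 36 of 16175 without a filter and 6 of 3825 with DESeq2. Leaving out 1 library gave 1 to 9 calls, with 9 of 3716 without shNC 1, 1 of 4575 without shPgk1 2 and 1 of 4636 without shPgk1 3. Marker-rich barcodes alone gave 2 calls of 2252 genes tested, Hspa1b and Rgs1, both lower in the libraries labelled shPgk1. The same setting turned Pgk1 to 0.38. The interaction with the Cd209a set ran from 0 calls without shPgk1 1 or shPgk1 3 to 5 without shPgk1 2, with 3 without shNC 2. That with the C1q set ran from 12 calls without shPgk1 3 to 155 without shPgk1 1, with 14, 22 and 13 without shNC 1, 2 and 3. The causes were not tested. Ccl9 and Ccl6 stayed lower in every alternative that tested them, with adjusted p from 1.97e-10 to 0.505 and from 5.34e-07 to 0.505. Stxbp3 passed with the replicate block (0.0113), without a filter (0.00193), with DESeq2 (0.0321) and without shNC 1 (0.0494). The gene test without barcodes of 3 or more C1q or epithelial UMIs could not be fitted, since 1, 1, 0, 1, 0 and 1 members were left. Depth limits the gene tests: the smallest library sum was 128482 UMIs, and 3825 of the 28649 genes in the files could be tested.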

Other observations

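Besides the macrophage genes described above, some members held transcripts of genes known from other cells. Siglech, a plasmacytoid dendritic gene, reached 10 or more UMIs in 3 members, 1 marker-rich and 2 marker-poor. Ccr7 was present at 1 UMI in 18 members, 9 in each range. Those 18 held Fscn1 and Ccl22 at 17.6 and 4.39 CPM, below the 22.3 and 16.3 CPM of members without a Ccr7 UMI. At least 3 C1q UMIs were found in 112 of the 118 members and at least 3 epithelial UMIs in 75. Whether these UMIs belonged to the member's own cell, to a second cell or to free RNA was not tested. Heat shock genes were higher in the marker-rich range in 11 of 14 and oxidative phosphorylation genes in 17 of 26, while interferon-stimulated genes were higher in the marker-poor range in 24 of 32. These counts are descriptions, since the same count over all genes was not made. Within that last list Rsad2, an antiviral enzyme, stood at 37.1 CPM in marker-rich and 363 in marker-poor barcodes, and Irf7, an interferon factor, at 188 and 102 CPM.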
